A study of Rattus norvegicus with 12 samples.

Results

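Chemokines, interleukins, cytokines of the tumour necrosis factor (TNF) superfamily and colony-stimulating factors, with their receptors, were followed in RNA sequenced from the renal cortex of lean, obese and treated obese rats. The genes were chosen by symbol alone: names that began with Ccl, Ccr, Cxcl, Cxcr or Il and a digit, with Cx3c, Tnfsf or Tnfrsf, or that were Csf1, Csf2 or Csf3. Of 13151 genes in the deposited table, 99 had such a symbol, and 68 of these had a value of at least 1 CPM in at least 4 of the 12 rats. CPM is the reads of a gene scaled to the depth of the rat. In all, 11633 genes reached the same minimum and were tested. Of the 68 cytokine genes, 57 had at least 1 CPM in all 12 rats, and Il1rn reached the minimum only through the ZF group. The other 31 had between 12 and 114 reads each over the 12 rats together and were not tested, Cxcl1 among them. Ccr2, Il6 and Il10 had no row under these symbols in the deposited table.

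Male Zucker lean (ZL) rats served as lean controls, and Zucker fatty (ZF) rats, which lack a functional leptin receptor in every tissue, as the model of obesity. ZF-SGLT2i rats were ZF rats whose diet carried the SGLT2 inhibitor canagliflozin over the last 8 weeks, from week 24 of age (10 mg/kg/day). The groups had 4 rats each, and all 12 rats were 32 weeks old. In the study's methods, ZL rats and a first ZF cohort had repeated open kidney biopsies, while the treatment experiment used other ZF rats, for which no biopsy is described. The labels do not say which cohort gave the sequenced ZF rats. The study's text calls them ZF, and a figure caption also uses its name for the untreated group of the treatment experiment. Comparisons with ZL may thus also differ by cohort and by kidney surgery. The same holds for ZF-SGLT2i against ZF if the ZF rats came from the first cohort. These differences cannot be told apart from obesity or treatment here. Obesity and the receptor defect came together in ZF against ZL and cannot be told apart. Reads on genes were 8886901 to 12210257 per ZL rat, 8824980 to 11191377 per ZF rat and 8914666 to 10293049 per ZF-SGLT2i rat. Ribosomal RNA genes held between 7.245% and 12.02% of these reads per ZL rat, between 8.816% and 11.97% per ZF rat and between 11.49% and 15.17% per ZF-SGLT2i rat. The counts of changed cytokine genes were within 1.5 times their values when these genes were left out before scaling. Values are listed by rat number: ZL rats 1 to 4, ZF rats 2 to 5, and ZF-SGLT2i rats 2, 3, 4 and 6.

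Chemokines are small secreted or membrane-bound proteins that bind receptors on leukocytes and direct their movement, and in the kidney they come from tubular, endothelial and mesenchymal cells as well as from leukocytes. Interleukins of the IL-6, IL-10 and IL-12 types signal through paired receptor chains, JAK kinases and STAT factors, whereas the IL-1 family and the TNF superfamily act through adaptor proteins on NF-kB and on cell death pathways. Secreted antagonists and decoy receptors limit several of these signals.

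Tnfrsf21, Il6st, Cxcl12, Cx3cl1, Cxcl16, Il33, Il4r, Il13ra1, Il17ra and Tnfrsf1a had the most CPM of the 68 genes on average over the 12 rats, without regard to transcript length. The summed CPM of all 68 genes was 2220.2, 2127, 2054 and 2473 in ZL, 2404, 2239, 2351 and 2197 in ZF and 2226, 2307, 2186 and 2287 in ZF-SGLT2i rats, and the 3 groups overlapped. By role the set held 8 CC chemokines, 7 CXC or CX3C chemokines, 6 chemokine receptors, 7 interleukins or colony-stimulating factors, 2 secreted inhibitors, 24 interleukin receptor chains, 4 TNF superfamily ligands and 10 TNF receptors.

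Between ZF and ZL rats, 14 of the 68 cytokine genes changed, 12 higher and 2 lower in ZF. A gene was counted as changed at a Benjamini-Hochberg adjusted p under 0.05 over all genes tested, from limma on log2(CPM + 1). This was 20.6% of the set, close to the 18.8% of all tested genes that passed in either direction. Of all tested genes, 8.19% passed as higher and 10.6% as lower. At an unadjusted p under 0.05 the count was 28. The median log2 fold change of the set was 0.15, that of all tested genes −0.01, and 49 cytokine genes stood above 0 and 19 below. The 4 values of ZF and of ZL did not overlap in 17 cytokine genes, 14 higher and 3 lower, beside 19% of all tested genes (8.67% higher and 10.3% lower). The count of changed cytokine genes was 9 without ZL rat 1 and 8 without ZF rat 3, beside 11.9% and 12.3% of all tested genes. In whole cortex, more cells of a type and more RNA per cell cannot be told apart.

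**Figure D1:**
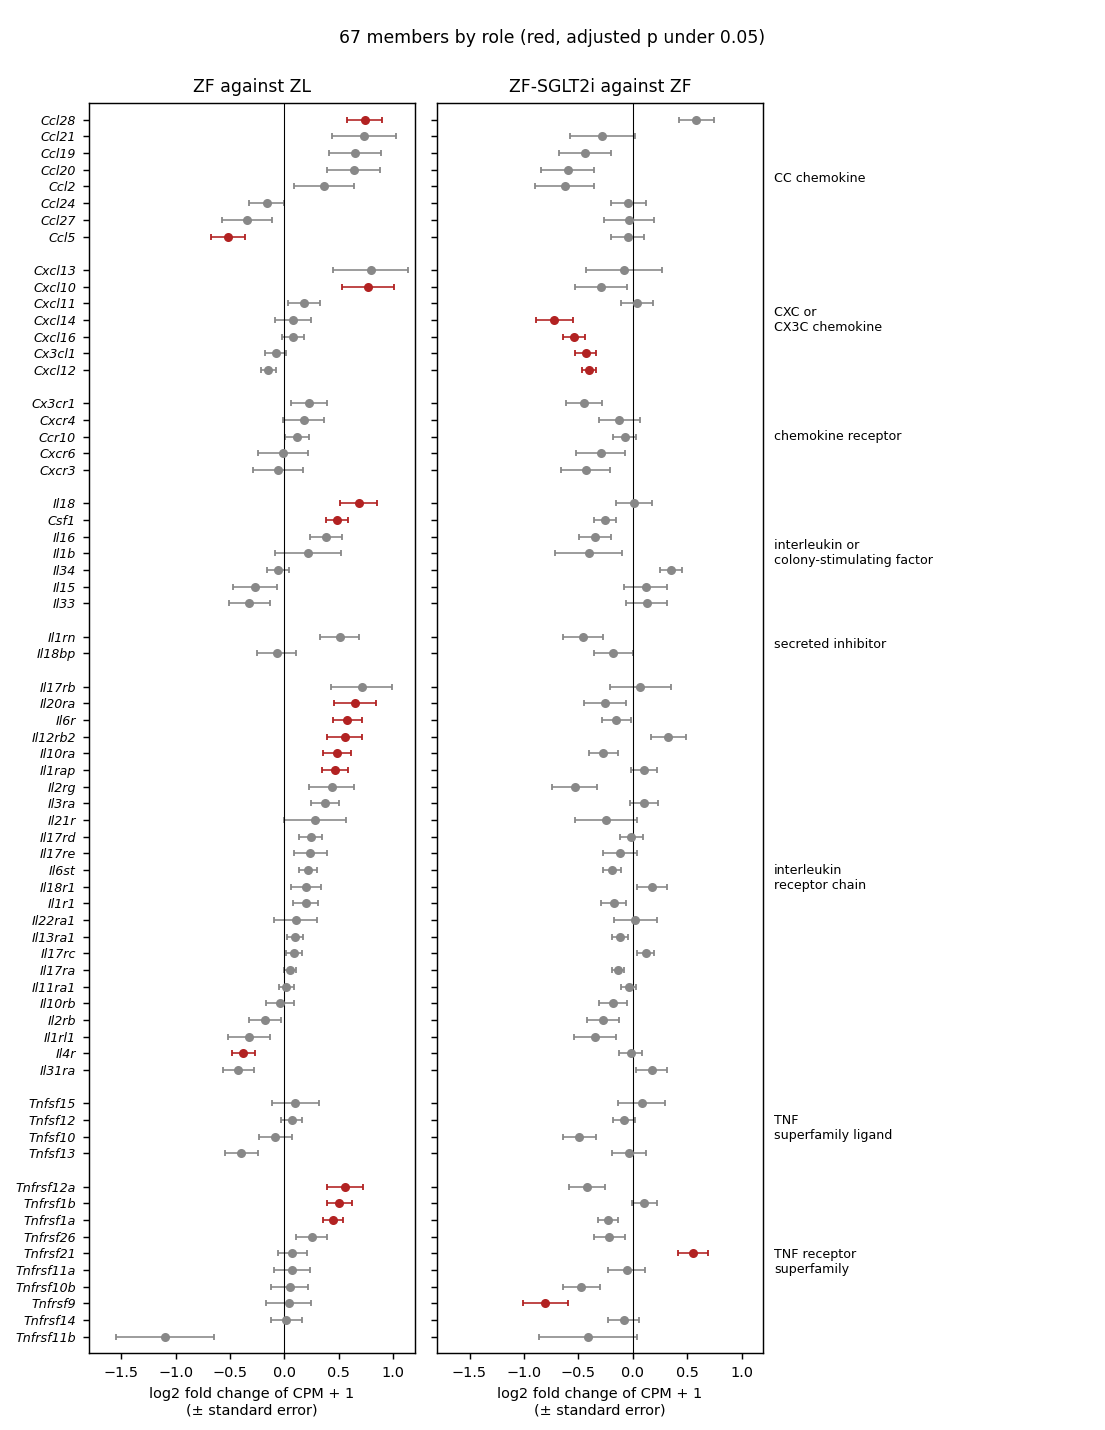
Log2 fold change of CPM + 1 with its standard error for 67 of the 68 cytokine genes, grouped by role, in ZF against ZL (left) and in ZF-SGLT2i against ZF (right), with red points for an adjusted p under 0.05. The left panel has 14 red points, 12 of them to the right of 0, and the right panel has 6, of which Tnfrsf21 is the one to the right of 0.

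Among the chemokines, Ccl28 and Cxcl10 were higher and Ccl5 was lower in ZF rats. Ccl28, an epithelial chemokine that binds CCR10, was at 8.08, 8.06, 9.98 and 5.18 CPM in the ZL rats and at 11.6, 13.2, 12.0 and 17.6 CPM in the ZF rats. All 4 ZF rats lay above all 4 ZL rats (log2 fold change 0.74, SE 0.16, adjusted p = 0.0076). Cxcl10, an interferon-induced ligand of CXCR3, was at 3.68, 5.03, 4.31 and 7.15 CPM in ZL and at 6.71, 15.9, 8.29 and 7.43 CPM in ZF rats. ZF rat 3 had the highest value, and the highest ZL rat lay above the lowest ZF rat (log2 fold change 0.77, SE 0.24, adjusted p = 0.0409). Ccl5, a T cell and macrophage attractant with 8 to 35 reads per rat, was at 1.97, 3.03, 2.38 and 2.14 CPM in ZL and at 1.34, 1.40, 1.71 and 0.984 CPM in ZF rats. Every ZF rat was below every ZL rat (log2 fold change −0.52, SE 0.16, adjusted p = 0.0332). The Cxcl10 call was lost when any of several rats was left out (adjusted p 0.0508 to 0.117 without ZL rat 1, 2 or 3, ZF rat 3 or 4 or ZF-SGLT2i rat 2 or 6), and so was that of Ccl5 (0.0631 to 0.0911 without ZL rat 2 or 3 or ZF rat 2, 3 or 5). Both were also lost in a fit of only the 2 groups (0.069 and 0.0521), that of Cxcl10 under quantile scaling (0.0647) and that of Ccl5 in DESeq2 (0.0617).

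Other chemokines had differences of similar size that did not pass. The log2 fold change of Ccl19, a homing chemokine of lymphoid tissue, was 0.65 (adjusted p = 0.0721). Ccl20, the ligand of CCR6, was at 0.357 to 1.47 CPM in ZL and 1.62 to 2.59 CPM in ZF rats, which did not overlap (log2 fold change 0.64, adjusted p = 0.0877). Cxcl13, a B cell attractant, did not overlap either, at 1.59 to 2.96 CPM in ZL and 3.72 to 5.08 CPM in ZF rats (log2 fold change 0.79, adjusted p = 0.128). For Ccl2, the main monocyte attractant, the range was 1.70 to 2.68 CPM in ZL and 1.53 to 5.27 CPM in ZF rats, and the groups overlapped (log2 fold change 0.36, adjusted p = 0.388). None of the 6 tested chemokine receptors, among them Cx3cr1, Cxcr3, Cxcr4 and Cxcr6, passed in limma, and 1 had an unadjusted p under 0.05.

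Csf1 and Il18 were the changed cytokines outside the chemokines, both higher in ZF. Csf1, the growth factor of monocytes and macrophages, was at 31.0, 33.6, 22.3 and 28.3 CPM in ZL rats and at 43.0, 39.9, 39.3 and 38.9 CPM in ZF rats. The groups were apart, and the ZF rats lay close together (log2 fold change 0.48, SE 0.10, adjusted p = 0.00649). Il34, the other ligand of the Csf1 receptor, was at 26.5 ± 2.52 CPM in ZL and 25.5 ± 3.69 CPM in ZF rats (SD, n = 4), with a log2 fold change of −0.06 (95% interval −0.28 to 0.16). Their receptor Csf1r, which marks macrophages, was at 32.6, 34.0, 23.6 and 34.7 CPM in ZL and 48.9, 40.9, 45.6 and 30.5 CPM in ZF rats, where ZF rat 5 lay within the ZL range (log2 fold change 0.39, adjusted p = 0.116). Il18, which inflammasome proteases cut to its active form, was at 2.51, 4.42, 2.83 and 1.97 CPM in ZL and at 6.23, 4.21, 5.21 and 5.14 CPM in ZF rats. ZL rat 2 lay just above the lowest ZF rat, ZF rat 3 (log2 fold change 0.68, SE 0.17, adjusted p = 0.0136).

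Within the IL-1 family, the IL-1 receptor accessory chain Il1rap was higher in ZF, at 11.8, 12.9, 10.8 and 8.84 CPM in ZL and 14.2, 15.5, 15.5 and 16.9 CPM in ZF rats. The groups did not overlap (log2 fold change 0.46, SE 0.12, adjusted p = 0.0171). This chain pairs with the receptors of IL-1 and of IL-33. The signalling receptor Il1r1 had a log2 fold change of 0.20, adjusted p = 0.257. Il1b was low, with 1 to 21 reads per rat, and ranged over 0.567 to 1.88 CPM in ZL and 0.437 to 2.10 CPM in ZF rats. Il33, an alarmin of stromal and epithelial nuclei, was at 152 ± 48.6 CPM in ZL and 118 ± 19.2 CPM in ZF rats (SD, n = 4; log2 fold change −0.32, adjusted p = 0.254). The secreted antagonist Il1rn was at 0.897, 0.433, 0.227 and 0.715 CPM in ZL and 1.05, 1.00, 1.45 and 1.31 CPM in ZF rats (log2 fold change 0.51, adjusted p = 0.0701, and 0.0454 with no filter). Its groups did not overlap, a separation that the minimum of 1 CPM in 4 rats helped to set.

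Of the 24 interleukin receptor chains, 5 were higher in ZF (Il1rap, Il6r, Il10ra, Il12rb2 and Il20ra) and Il4r was lower. Together they made up 25% of the chains, beside 18.8% of all tested genes. Il6r, the binding chain of IL-6, was at 6.64, 8.93, 8.62 and 9.02 CPM in ZL and 14.4, 12.6, 12.6 and 11.8 CPM in ZF rats. Every ZF rat was above every ZL rat (log2 fold change 0.58, SE 0.14, adjusted p = 0.0109). Its signalling partner Il6st (gp130) was at 325, 331, 277 and 356 CPM in ZL and 409.5, 361, 399 and 332 CPM in ZF rats. Those groups overlapped, and the difference did not pass (log2 fold change 0.22, SE 0.08, adjusted p = 0.0852), though it did without ZF rat 5 (0.0458) or ZL rat 4 (0.0493) and under quantile scaling (0.0105). Il10ra, the binding chain of IL-10, lay between 3.39 and 3.52 CPM in the ZL rats and at 5.85, 6.01, 5.30 and 3.94 CPM in the ZF rats. The ZL rats were nearly equal, and all ZF rats were above them (log2 fold change 0.48, SE 0.13, adjusted p = 0.0229), while the shared chain Il10rb had a log2 fold change of −0.04. Il12rb2, a signalling chain of the IL-12 receptor, was at 10.7, 14.7, 9.41 and 7.95 CPM in ZL and 13.4, 17.4, 13.8 and 19.1 CPM in ZF rats. ZL rat 2 lay within the ZF range (log2 fold change 0.55, SE 0.16, adjusted p = 0.0283).

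Il20ra, a chain of the receptors for IL-20 and related cytokines on epithelia, was at 4.85, 8.24, 7.26 and 4.82 CPM in ZL and 7.00, 12.5, 11.5 and 10.6 CPM in ZF rats. ZF rat 2 lay within the ZL range (log2 fold change 0.65, SE 0.20, adjusted p = 0.0342). Il4r, the receptor chain shared by IL-4 and IL-13, was at 117, 98.4, 109 and 154 CPM in ZL and 96.8, 87.8, 93.1 and 85.3 CPM in ZF rats. All ZF rats were below all ZL rats, of which rat 4 was the highest (log2 fold change −0.38, SE 0.10, adjusted p = 0.0234). Over the 24 alternatives the log2 fold change of Il4r lay between −0.46 and −0.25. Its partner Il13ra1 had a log2 fold change of 0.10, adjusted p = 0.377. Single rats decided some of these calls, with an adjusted p for Il10ra of 0.055 to 0.0715 without ZL rat 1 or ZF rat 2 or 3, and for Il12rb2 of 0.0592 to 0.0812 without ZL rat 1, 3 or 4 or ZF rat 3 or 5. Il3ra, the binding chain of IL-3, passed only without ZF rat 4 among the repeats that left out a rat (log2 fold change 0.37, SE 0.13, adjusted p = 0.0606, and 0.00626 without it). It also passed with array weights (0.0152) and in DESeq2 (0.0407), and was at the threshold in edgeR (0.05). Over the 24 alternatives the log2 fold change of Il3ra lay between 0.23 and 0.50, with an adjusted p of up to 0.269. Calls were lost for Il20ra (0.0675 to 0.103 without ZL rat 1 or 4 or ZF rat 3, 4 or 5) and Il4r (0.0538 to 0.0635 without ZL rat 1 or ZF rat 3 or 5). In a fit of only the 2 groups, Il12rb2 (0.062), Il20ra (0.0582) and Il4r (0.0621) did not pass, nor did Il20ra under quantile scaling (0.057).

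In the TNF receptor superfamily, 3 of 10 genes changed, all higher in ZF (30%, beside 18.8% of all tested genes in either direction). Tnfrsf1a, the TNF receptor found on most cells, was at 44.5, 40.4, 36.7 and 42.6 CPM in ZL rats and at 65.6, 54.3, 57.5 and 48.6 CPM in ZF rats. The groups were apart (log2 fold change 0.45, SE 0.09, adjusted p = 0.0043). Tnfrsf1b, the TNF receptor of leukocytes and endothelium, was at 9.24, 7.46, 9.53 and 7.95 CPM in ZL and 15.1, 11.2, 13.5 and 10.5 CPM in ZF rats. They too did not overlap (log2 fold change 0.50, SE 0.12, adjusted p = 0.01). Tnfrsf12a (Fn14), the receptor of the cytokine TWEAK, was at 10.5, 9.19, 9.64 and 11.5 CPM in ZL and 22.6, 12.8, 16.2 and 12.0 CPM in ZF rats, with ZF rat 2 the highest. The groups did not overlap, but the call was lost when any of several rats was left out (log2 fold change 0.56, SE 0.17, adjusted p = 0.0324, and 0.0577 to 0.0819 without ZL rat 1, 2 or 3 or ZF rat 2 or 4), and it was lost in a fit of only the 2 groups (0.058). TWEAK itself, Tnfsf12, was at 15.2 ± 0.764 CPM in ZL and 16.1 ± 2.37 CPM in ZF rats (SD, n = 4), with a log2 fold change of 0.07 (95% interval −0.15 to 0.28). Tnfrsf11b (osteoprotegerin), a decoy receptor, was at 17.1, 4.51, 6.12 and 32.2 CPM in ZL and 7.38, 3.11, 5.98 and 3.72 CPM in ZF rats and did not pass (log2 fold change −1.09, SE 0.45, adjusted p = 0.106). It passed without ZL rat 2 (0.0238), with array weights (0.0346), in edgeR (0.0485) and in DESeq2 (0.0437). Over the 24 alternatives the log2 fold change of Tnfrsf11b lay between −1.56 and −0.62, with an adjusted p of up to 0.378. Csf1, Tnfrsf1a and Tnfrsf1b were the 3 of the 14 genes that passed under all 24 alternatives tried. For these 3 genes an exact permutation test of 4 rats against 4 gave p = 0.0286, the smallest it can give.

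**Figure D2:**
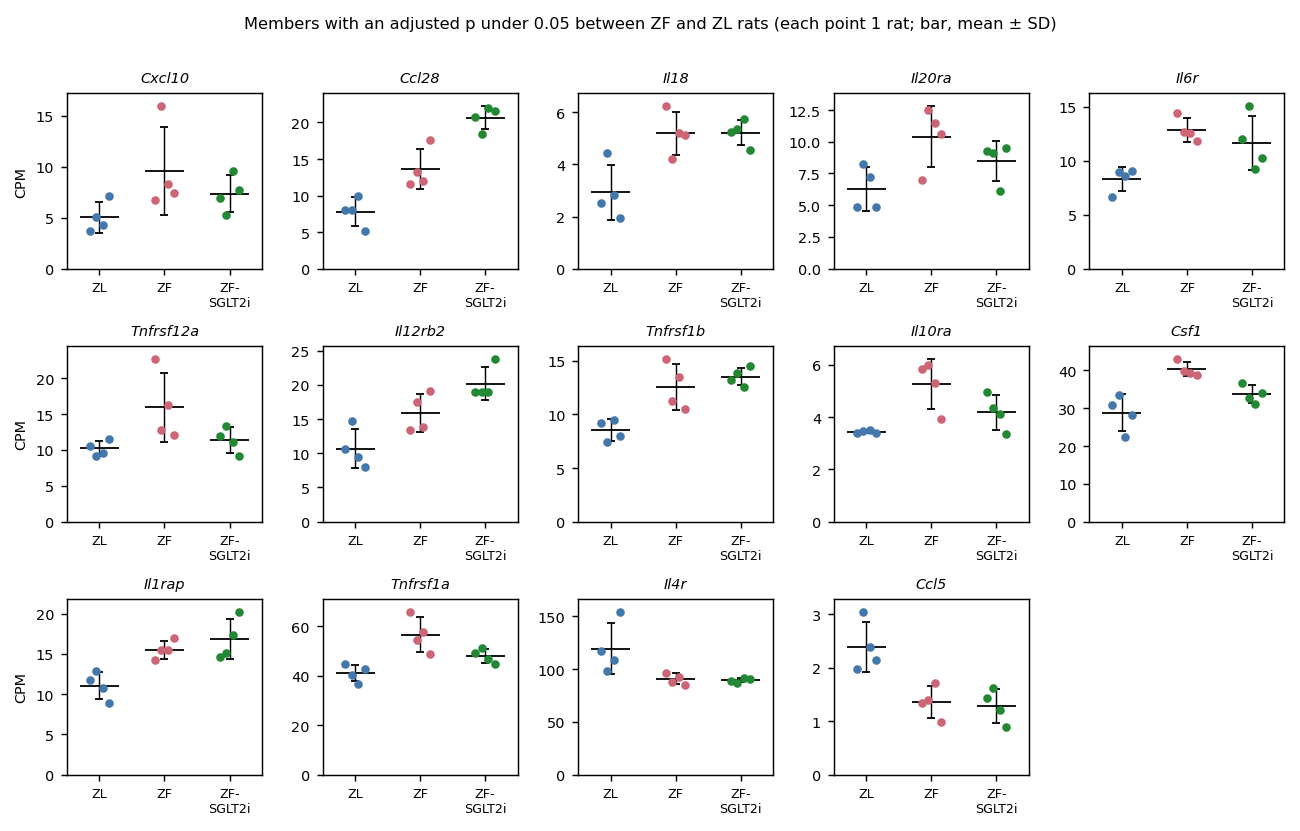
CPM in each rat for the 14 cytokine genes that passed between ZF and ZL, with points for rats and bars for the mean and SD of 4 rats in ZL, ZF and ZF-SGLT2i. ZF points lie above all ZL points for Ccl28, Csf1, Il1rap, Il6r, Il10ra, Tnfrsf1a, Tnfrsf1b and Tnfrsf12a and below them for Ccl5 and Il4r.

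Promoters of 52 of the 68 genes were found in RefSeq tables of the rat assembly GRCr8, as the 250 bases before the start of each gene. Both strands were searched for GAAANNGAA, the start of the interferon response element, for TTCNNNGAA, the palindrome that STAT factors bind, and for GGGNNTTTC, the start of a form of the NF-kB site. GAAANNGAA was in 6 of the 52 promoters (Ccl19, Cxcl10, Il15, Il6st, Tnfrsf1b and Tnfsf10) and in 7.99% of all 27457 promoters. TTCNNNGAA was in 5 (Ccl24, Cxcl11, Il12rb2, Il18r1 and Tnfrsf12a) and in 7.52% of all, and GGGNNTTTC in 6 (Ccl20, Cx3cr1, Cxcl16, Cxcr3, Il1rn and Tnfrsf1b) and in 3.68% of all. Promoters of 5 changed genes that hold a match are shown 5′ to 3′ on the strand of the gene, with the matching bases in capitals. Cxcl10 (chr14:15988816-15989065, plus strand) holds GAAANNGAA, and Tnfrsf1b (chr5:162387412-162387661, minus strand) holds GAAANNGAA and GGGNNTTTC, which overlap. Tnfrsf12a (chr10:13213649-13213898, minus strand) and Il12rb2 (chr4:97844938-97845187, minus strand) hold TTCNNNGAA. Cxcl16 (chr10:55669951-55670200, minus strand) holds GGGNNTTTC. A match is a description of the sequence only, and binding was not measured.
Cxcl10: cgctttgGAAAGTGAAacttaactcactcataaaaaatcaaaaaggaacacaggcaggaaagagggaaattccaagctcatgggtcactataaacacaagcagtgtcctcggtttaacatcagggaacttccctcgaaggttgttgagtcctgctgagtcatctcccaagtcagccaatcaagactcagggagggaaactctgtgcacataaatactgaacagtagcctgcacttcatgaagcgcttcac
Tnfrsf1b: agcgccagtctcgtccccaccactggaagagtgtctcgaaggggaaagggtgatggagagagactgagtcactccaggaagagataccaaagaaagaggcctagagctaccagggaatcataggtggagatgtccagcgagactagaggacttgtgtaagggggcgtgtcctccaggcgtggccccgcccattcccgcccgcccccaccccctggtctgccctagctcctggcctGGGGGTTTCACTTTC
Tnfrsf12a: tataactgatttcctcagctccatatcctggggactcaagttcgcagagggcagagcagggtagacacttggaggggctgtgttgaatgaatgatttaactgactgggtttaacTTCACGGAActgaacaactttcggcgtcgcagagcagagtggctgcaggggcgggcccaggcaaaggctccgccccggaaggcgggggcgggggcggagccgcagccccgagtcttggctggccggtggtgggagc
Il12rb2: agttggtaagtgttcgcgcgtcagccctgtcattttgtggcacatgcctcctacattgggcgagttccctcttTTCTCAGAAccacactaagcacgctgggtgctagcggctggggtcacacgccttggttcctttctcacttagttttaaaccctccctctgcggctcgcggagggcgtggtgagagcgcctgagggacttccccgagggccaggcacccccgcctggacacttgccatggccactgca
Cxcl16: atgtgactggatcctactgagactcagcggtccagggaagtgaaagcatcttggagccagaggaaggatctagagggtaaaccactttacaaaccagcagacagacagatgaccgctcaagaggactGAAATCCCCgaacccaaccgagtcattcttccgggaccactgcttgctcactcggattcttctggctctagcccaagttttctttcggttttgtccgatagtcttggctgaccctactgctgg

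The comparison of treated with untreated obese rats asked for the effect of canagliflozin, and 7 of the 68 cytokine genes changed in it. Tnfrsf21 was higher and 6 genes were lower in treated rats, among them Cx3cl1, Cxcl12, Cxcl14, Cxcl16 and Tnfrsf9. This was 10.3% of the set, where 3.15% of all tested genes passed, 1.39% higher and 1.75% lower. At an unadjusted p under 0.05 the count was 22. The median log2 fold change was −0.16 against 0.01 over all tested genes, and 17 cytokine genes stood above 0 and 51 below. The 4 values of each group did not overlap in 12 cytokine genes, 3 higher and 9 lower, beside 11.2% of all tested genes (5.54% higher and 5.63% lower). The ZF rats were also in the comparison with ZL, so that a ZF rat with an unusual value moves both. The count moved when single rats were left out: it was 2 without ZF rat 2, 3 or 4 or ZF-SGLT2i rat 3, 4 or 6, 3 without ZF-SGLT2i rat 2, and 11 without ZF rat 5. The share of all tested genes was between 1.51% and 1.81% for the counts of 2, 2.26% without ZF-SGLT2i rat 2 and 4.9% without ZF rat 5. With only genes of at least 5 CPM on average it was 4, of 39 cytokine genes then tested, beside 3.37% of all genes.

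Of the 7 tested CXC and CX3C chemokines, 4 were lower in treated rats (57.1%, beside 1.75% of all tested genes). Cxcl12, a homeostatic chemokine of stromal cells and podocytes, was at 218, 208, 226 and 212 CPM in ZF and at 169, 146, 173 and 165 CPM in ZF-SGLT2i rats. The groups were far apart in relation to their spread (log2 fold change −0.40, SE 0.07, adjusted p = 0.00609). In ZL rats it was at 238, 259, 214 and 247 CPM, above every treated rat (log2 fold change −0.55, SE 0.07, adjusted p = 0.000115 for ZF-SGLT2i against ZL). Cxcl16, a chemokine made as a transmembrane protein that also acts as a scavenger receptor, was at 149, 159.6, 179 and 122 CPM in ZF and 107, 97.7, 113 and 95.7 CPM in ZF-SGLT2i rats. All treated rats were below all ZF rats (log2 fold change −0.54, SE 0.10, adjusted p = 0.0104) and below all ZL rats, which were at 146, 156, 142 and 129 CPM. Cxcl12 and Cxcl16 passed under all 24 alternatives tried, and an exact permutation test gave p = 0.0286 for each. The Cxcl12 promoter had no match to the 3 motifs in the 250 bases searched.

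Cx3cl1 (fractalkine), which like Cxcl16 is anchored in the cell membrane until it is shed, was at 173, 168, 172 and 144 CPM in ZF and 124, 124, 122 and 116 CPM in ZF-SGLT2i rats. The treated rats lay close together and below all ZF rats (log2 fold change −0.43, SE 0.10, adjusted p = 0.0264), and ZL rats were at 191, 165, 142 and 202 CPM. Cxcl14, a chemokine of epithelia and fibroblasts, had 12 to 43 reads per rat and was at 4.12, 2.71, 3.67 and 1.97 CPM in ZF and 1.52, 1.41, 1.51 and 1.34 CPM in ZF-SGLT2i rats. Again the groups did not overlap (log2 fold change −0.72, SE 0.17, adjusted p = 0.0336). Both calls were lost when any of several rats was left out, with an adjusted p for Cx3cl1 of 0.054 to 0.0779 without ZF rat 2, 3 or 4 or ZF-SGLT2i rat 2, 3, 4 or 6, and for Cxcl14 of 0.0511 to 0.106 without ZL rat 1, ZF rat 2, 3 or 4 or ZF-SGLT2i rat 2, 3, 4 or 6. The log2 fold change stayed between −0.49 and −0.41 for Cx3cl1 and between −1.12 and −0.61 for Cxcl14 over the alternatives run. The summed CPM of the 7 CXC and CX3C chemokines was 589.9, 598, 513 and 598 in ZL, 564, 569, 601 and 497 in ZF and 428, 387, 431 and 396 in ZF-SGLT2i rats. Treated rats were thus below every rat of the other groups in this sum, to which Cxcl12 gave the most.

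The receptors of these chemokines did not pass in the same comparison. Cx3cr1, the receptor of Cx3cl1 on monocytes and macrophages, was at 7.29, 7.02, 6.58 and 4.15 CPM in ZF and 5.71, 3.74, 4.02 and 3.68 CPM in ZF-SGLT2i rats. ZF rat 5 was within the treated range, and the difference passed only without that rat (log2 fold change −0.45, SE 0.17, adjusted p = 0.169, and 0.031 without it). For Cxcr6, the receptor of Cxcl16, the log2 fold change was −0.29 (95% interval −0.78 to 0.19) at 4 to 23 reads per rat. For Cxcr4, the receptor of Cxcl12, it was −0.12 (95% interval −0.53 to 0.29). The intervals of both include a fall as large as that of the ligand. Ackr3, the scavenging receptor of Cxcl12, had been raised in ZF, to 71.1 ± 7.26 from 53.2 ± 2.75 CPM in ZL (SD, n = 4; log2 fold change 0.41, SE 0.08, adjusted p = 0.00377). In treated rats it was at 76.0 ± 5.78 CPM (log2 fold change 0.10, adjusted p = 0.565 against ZF).

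Tnfrsf9 and Tnfrsf21 of the TNF receptor superfamily changed with treatment in opposite directions. Tnfrsf9 (4-1BB), a costimulatory receptor of T cells, was at 3.74, 4.51, 6.15 and 2.19 CPM in ZF and 1.52, 1.92, 1.71 and 2.23 CPM in ZF-SGLT2i rats. ZF rat 5 lay just below the highest treated rat, and the other ZF rats above all treated rats (log2 fold change −0.80, SE 0.20, adjusted p = 0.0494), and the gene had 16 to 72 reads per rat. Tnfrsf21 (death receptor 6) was at 408, 391, 374 and 490.4 CPM in ZF and 551, 690.1, 537 and 674 CPM in ZF-SGLT2i rats. All treated rats were above all ZF rats (log2 fold change 0.56, SE 0.14, adjusted p = 0.0417), and ZL rats were at 336, 339.7, 401 and 521 CPM. Leaving out rats ended both calls, with an adjusted p for Tnfrsf9 of 0.0512 to 0.137 without ZL rat 1, 2 or 3, ZF rat 2, 3 or 4 or ZF-SGLT2i rat 2, 3, 4 or 6, and for Tnfrsf21 of 0.0506 to 0.132 without ZL rat 3, ZF rat 2, 3 or 4 or ZF-SGLT2i rat 2, 3, 4 or 6. Under quantile scaling neither passed (0.063 for Tnfrsf9 and 0.0561 for Tnfrsf21), Tnfrsf9 did not pass in a fit of only the 2 groups (0.0676), and Tnfrsf21 did not in edgeR on the recovered reads (0.053).

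**Figure D3:**
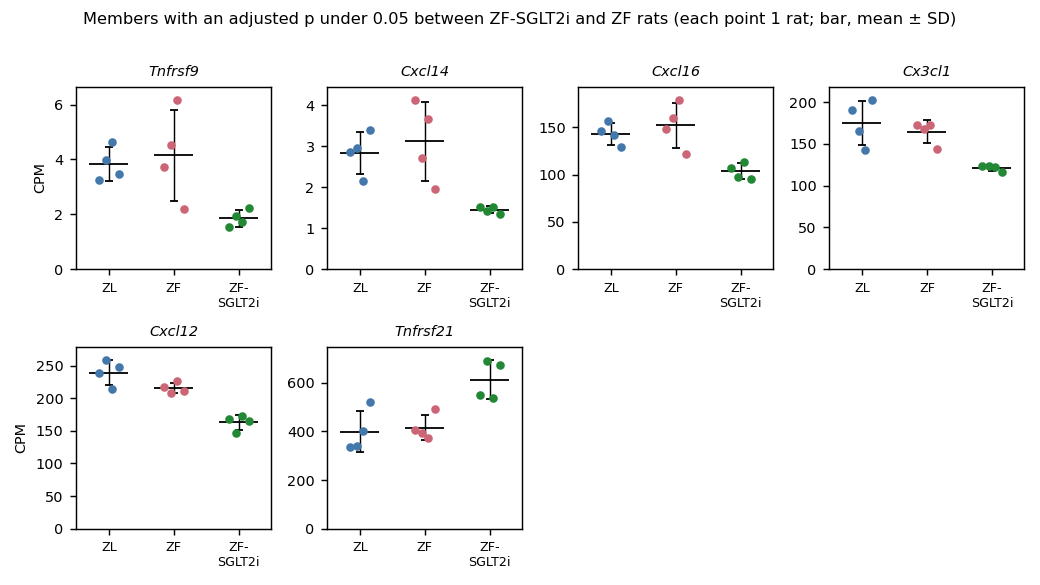
CPM in each rat for 6 cytokine genes that passed between ZF-SGLT2i and ZF, with points for rats and bars for the mean and SD of 4 rats in ZL, ZF and ZF-SGLT2i. Treated rats lie below all ZF rats for Cxcl14, Cxcl16, Cx3cl1 and Cxcl12 and above them for Tnfrsf21, and ZF rat 5 overlaps the treated rats for Tnfrsf9.

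The 14 genes that differed between ZF and ZL had these values under treatment, and none of them passed between ZF-SGLT2i and ZF. Ccl28 was at 20.8, 18.5, 21.9 and 21.5 CPM in treated rats, above every ZF rat (log2 fold change 0.58, SE 0.16, adjusted p = 0.0683). That call was gained in 6 of the 24 alternatives, those without ZL rat 3 or 4 or ZF rat 5 (adjusted p 0.0182 to 0.0475), and with array weights (0.0195), in a fit of only the 2 groups (0.0222) and in DESeq2 (0.0115). Csf1 was at 36.8, 32.7, 31.2 and 34.0 CPM, below every ZF rat (log2 fold change −0.25, SE 0.10, adjusted p = 0.213), and against ZL it passed only without ZL rat 2 (adjusted p = 0.112, and 0.0363 without it). Tnfrsf1a was at 49.2, 51.1, 46.7 and 44.7 CPM, between the ZL rats and most ZF rats (log2 fold change −0.23, adjusted p = 0.193), and Tnfrsf1b at 13.2, 13.8, 12.6 and 14.5 CPM, within the ZF range (0.11, adjusted p = 0.692). Tnfrsf12a was at 12.0, 13.3, 11.1 and 9.14 CPM (log2 fold change −0.42, adjusted p = 0.203, and −0.53 to −0.25 over the 24 alternatives). The remaining 9 genes had log2 fold changes between −0.29 (Cxcl10) and 0.33 (Il12rb2), each with an adjusted p of at least 0.321. Il34 was higher in every treated than in every ZF rat, at 33.3, 30.6, 36.0 and 30.7 against 27.5, 22.2, 29.7 and 22.6 CPM, and did not pass (log2 fold change 0.35, SE 0.10, adjusted p = 0.0813). With array weights Il34 passed (0.0311). Tnfsf10 (TRAIL), a death ligand, was at 6.12 ± 0.932 against 9.13 ± 2.15 CPM (SD, n = 4; log2 fold change −0.49, adjusted p = 0.102). It passed without ZF rat 5 (0.0091), with array weights (0.0288) and in DESeq2 (0.036).

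Between ZF-SGLT2i and ZL rats, 20 of the 68 cytokine genes changed, 9 higher and 11 lower in treated rats, which asked where treated obese rats stood against lean rats. This was 29.4% of the set, close to the 27.4% of all tested genes (12.4% higher and 15% lower). The median log2 fold change was 0.02, and the groups did not overlap in 22 cytokine genes, beside 28% of all tested genes. Ccl28 was the most raised in log2 fold change of the 9, at 20.7 ± 1.54 CPM against 7.82 ± 1.98 CPM in ZL (log2 fold change 1.32, SE 0.16, adjusted p = 0.000101), a ratio of means of 2.64. Il12rb2, Il18, Il1rap, Il6r and Tnfrsf1b, which were higher in ZF, were higher in treated rats too, with log2 fold changes of 0.88, 0.69, 0.56, 0.43 and 0.61. The other 3 were Tnfrsf21 (0.63), Il34 (0.29) and Il3ra (0.48). Il3ra was at 11.3, 12.1, 11.5 and 11.3 CPM in treated and 7.18, 8.84, 8.96 and 7.24 CPM in ZL rats, which did not overlap.

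The 11 lower genes were the 4 chemokines Cxcl12, Cxcl14, Cxcl16 and Cx3cl1, Ccl5, the receptor chains Il4r, Il1rl1 and Il2rb, and Tnfrsf9, Tnfrsf11b and Tnfsf10. Il1rl1 (ST2), the receptor of IL-33, was at 3.41, 3.03, 2.95 and 3.04 CPM in ZL and 2.00, 1.82, 1.01 and 1.56 CPM in treated rats (log2 fold change −0.68, SE 0.19, adjusted p = 0.0198). Il2rb, a chain of the IL-2 and IL-15 receptors on T and NK cells, was at 2.96, 3.38, 3.29 and 3.04 CPM in ZL and 2.29, 2.32, 1.91 and 1.67 CPM in treated rats (log2 fold change −0.46, SE 0.15, adjusted p = 0.033). Both were lower in every treated rat than in every ZL rat, and ZF rats lay across the 2 ranges. Tnfrsf11b was at 2.76, 3.84, 2.52 and 4.68 CPM in treated rats. ZL rats 1 and 4 were far above the other ZL rats, and ZL rat 2 lay below the highest treated rat (log2 fold change −1.51, SE 0.45, adjusted p = 0.0238). The call was lost for Tnfrsf11b at 0.0506 to 0.0735 without ZL rat 1 or 4 or ZF-SGLT2i rat 2 or 4, for Il2rb at 0.0543 to 0.0968 without ZL rat 1, 2, 3 or 4 or ZF-SGLT2i rat 4 or 6, and for Il1rl1 at 0.0555 to 0.0566 without ZL rat 1 or ZF-SGLT2i rat 4. It was also lost for Il34 (0.0515 to 0.117 without ZL rat 2, 3 or 4, ZF rat 2 or ZF-SGLT2i rat 2, 3, 4 or 6), Il6r (0.07 to 0.1 without ZL rat 1 or ZF-SGLT2i rat 2 or 3) and Ccl5 (0.0546 without ZF-SGLT2i rat 6). Il2rb did not pass in DESeq2 (0.0642), Il6r in a fit of only the 2 groups (0.0558), or Il34 with no filter (0.0519) or array weights (0.0732). Of the 20 genes, 10 passed under every alternative run for them: Ccl28, Cx3cl1, Cxcl12, Cxcl14, Cxcl16, Il12rb2, Il3ra, Tnfrsf1b, Tnfrsf9 and Tnfsf10. These were 24 alternatives for each but 23 for Cxcl14 and Tnfrsf9, whose means were under the stricter minimum of 5 CPM.

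Genes of the same pathways outside the symbol families were taken from lists of other cytokines and receptors, JAK-STAT signalling, and NF-kB, TRAF and IL-1 receptor signalling. Of 123 listed genes, 107 were in the table and 96 were tested. Between ZF and ZL, 21 of the 96 changed (21.9%, beside 18.8% of all genes), 15 higher and 6 lower in ZF. The count was 13 without ZL rat 1 and 12 without ZF rat 2, beside 11.9% and 12.5% of all tested genes. In treated against untreated ZF rats, 2 of the 96 changed (2.08%, beside 3.15%; 1 without ZF rat 2, 3 or 4 or ZF-SGLT2i rat 2, 3 or 6), and between ZF-SGLT2i and ZL 22 (22.9%, beside 27.4%), 13 higher and 9 lower.

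Of 32 other cytokines and receptors, 6 were higher and 3 lower in ZF than in ZL (28.1%, beside 18.8% of all tested genes). Spp1 (osteopontin), an adhesive cytokine of tubular cells and macrophages, was at 167, 178, 166 and 166 CPM in ZL and 1473, 411, 1056 and 313 CPM in ZF rats. The ZL rats were nearly equal and the ZF rats spread widely above them, with rats 2 and 4 the highest (log2 fold change 1.98, SE 0.47, adjusted p = 0.0115). In the IL-6 family, the oncostatin M receptor Osmr was at 12.5, 10.6, 12.2 and 11.9 CPM in ZL and 24.5, 17.8, 16.9 and 14.4 CPM in ZF rats (log2 fold change 0.58, SE 0.13, adjusted p = 0.00752). Lifr, the receptor of leukaemia inhibitory factor, went the other way, at 297, 232, 249 and 309.6 CPM in ZL and 143, 123, 168 and 122 CPM in ZF rats. Every ZF rat was below every ZL rat (log2 fold change −0.96, SE 0.11, adjusted p = 0.000155). Kitlg (stem cell factor) and the chemerin receptor Cmklr1 were also higher, with log2 fold changes of 0.56 and 0.66, as was Ackr3. Mif, a macrophage cytokine also made by tubules, and Sigirr, an inhibitory receptor of the IL-1 family, were lower, with log2 fold changes of −0.52 and −0.32.

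In JAK-STAT signalling, 4 of 25 genes were higher and 1 lower in ZF than in ZL (20%, close to the 18.8% of all tested genes). Stat3, the factor that IL-6 family receptors activate, was at 222, 227, 226 and 216 CPM in ZL and 272, 269, 261 and 282 CPM in ZF rats. The groups were apart, with a narrow spread (log2 fold change 0.28, SE 0.05, adjusted p = 0.00188). Its feedback inhibitor Socs3 was at 1.53, 0.867, 1.93 and 1.79 CPM in ZL and 6.71, 2.81, 4.10 and 2.40 CPM in ZF rats, which did not overlap (log2 fold change 0.93, SE 0.26, adjusted p = 0.0228). Stat4, the factor of IL-12, and Stat6, that of IL-4, had log2 fold changes of 0.55 and 0.22, and Stat5a one of −0.48. In NF-kB, TRAF and IL-1 receptor signalling, 5 of 39 genes were higher and 2 lower (17.9%, also close to that share). The higher genes were Nfkb1, which encodes an NF-kB subunit (0.37), Nfkbiz (0.68), the kinase Ikbkb (0.20), the adaptor Tab1 (0.23) and Tnfaip2 (0.51). The lower genes were Nfkbib, an inhibitor of NF-kB (−0.31), and Tollip, which dampens IL-1 receptor signals (−0.23).

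The pathway genes that changed with treatment were Kit, the receptor of stem cell factor, and Socs2, a feedback inhibitor of growth hormone and cytokine receptors. Kit was at 81.8, 93.3, 69.6 and 80.3 CPM in ZF and 125, 129, 125 and 133 CPM in ZF-SGLT2i rats, and treated rats were far above ZF rats (log2 fold change 0.66, SE 0.09, adjusted p = 0.00131). Socs2 was at 3.55, 2.61, 2.99 and 2.51 CPM in ZF and 1.24, 1.41, 2.01 and 1.45 CPM in ZF-SGLT2i rats, which did not overlap (log2 fold change −0.63, SE 0.14, adjusted p = 0.0276). It was the 1 lower pathway gene in this comparison, and the count of lower pathway genes was 0 without ZF rat 2, 3 or 4 or ZF-SGLT2i rat 2, 3 or 6. Against ZL, treated rats were also lower in Cish, another STAT-induced inhibitor, at 16.9, 14.7, 21.7 and 16.5 CPM against 78.1, 25.7, 97.2 and 137 CPM, and every treated rat was below every ZL rat (log2 fold change −2.00, SE 0.38, adjusted p = 0.00204). Rarres2 (chemerin) was higher in treated than in ZL rats (log2 fold change 0.97, SE 0.16, adjusted p = 0.000766), and so were Clcf1, Ifngr1, Pias3 and Rela, with log2 fold changes of 0.65, 0.31, 0.30 and 0.19. Ngfr (−1.05), Traf3 (−0.30) and Irak2 (−0.33) were lower. The other genes that passed against ZL were Lifr, Osmr, Ackr3, Kit, Kitlg, Sigirr, Spp1, Stat3, Stat5a, Socs2, Nfkbiz, Tollip and Tnfaip2.

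**Figure D4:**
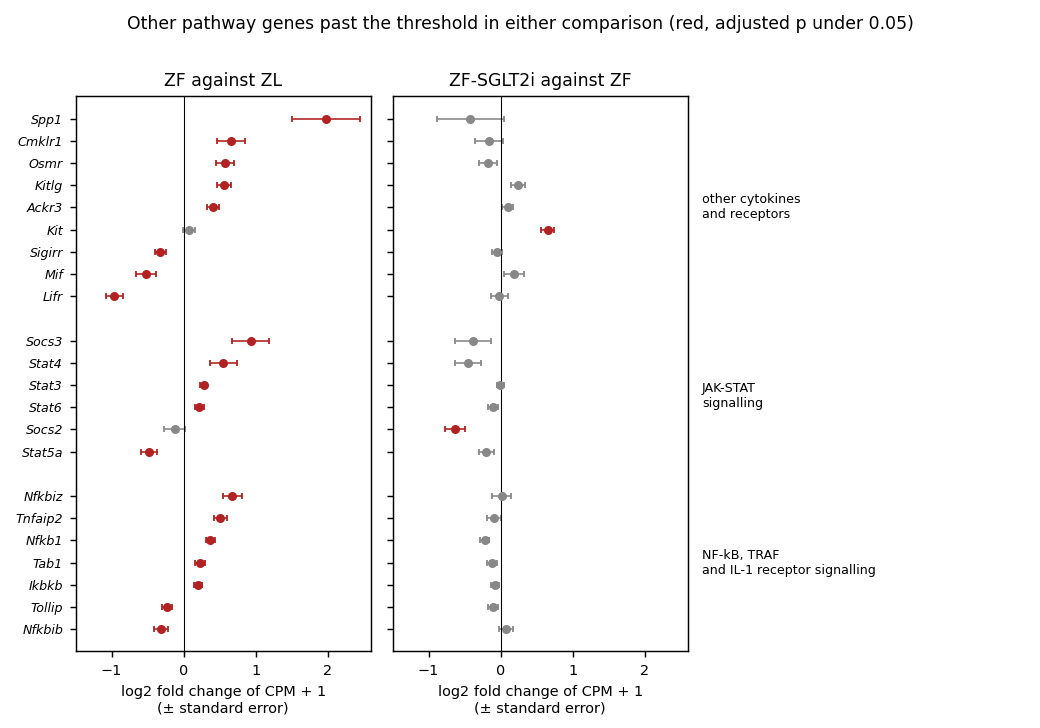
Log2 fold change of CPM + 1 with its standard error for 22 pathway genes outside the symbol families that passed in either of 2 comparisons, ZF against ZL (left) and ZF-SGLT2i against ZF (right), by list, with red points for an adjusted p under 0.05. On the left 20 points are red, Spp1 the farthest from 0, and on the right 2, Kit to the right of 0 and Socs2 to the left.

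Marker genes of leukocytes and of kidney cells moved between the same groups, and their part in the values of the cytokine genes was not tested. Of 15 listed macrophage genes, 12 were in the table and 11 were tested. All 11 had a log2 fold change above 0 in ZF against ZL and below 0 in ZF-SGLT2i against ZF, with medians of 0.31 and −0.215, but none passed in limma (3 and 1 at an unadjusted p under 0.05). The summed CPM of the macrophage list was 249, 244, 176 and 236 in ZL, 349, 341, 363 and 234 in ZF and 425, 257, 206 and 249 in ZF-SGLT2i rats, and Lyz2 was its most abundant gene. ZF rat 5 lay within the ZL range of this sum, and ZF-SGLT2i rat 2 was the highest of all. The summed CPM of the T cell list was 30.4, 29.5, 21.1 and 29.5 in ZL, 35.0, 33.4, 39.7 and 27.3 in ZF and 38.8, 22.0, 18.5 and 24.2 in ZF-SGLT2i rats, most of it Cd4. Its defining genes Cd3d, Cd3e and Cd3g were below 1 CPM in all 12 rats, and Cd3d was at 0 in 2 of them. B cell genes were below 1 CPM (Blk and Mzb1) or had no row in the deposited table (Ms4a1, Cd79a, Cd79b, Pax5 and Jchain). Sdc1 was the tested gene of that list. The NK cell list summed to at most 6.50 CPM in a rat, and neither of its 2 tested genes passed in any comparison. Of the 5 tested T cell genes, Cd2 was lower in treated than in ZL rats (log2 fold change −0.67, SE 0.19, adjusted p = 0.018), and none passed in the other comparisons in limma (0 and 2 at an unadjusted p under 0.05).

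Of 12 genes of injured tubule, 9 were higher in ZF than in ZL (75%, beside 18.8% of all tested genes). Their summed CPM was 670.5, 615, 549 and 663 in ZL, 2269, 977, 1758 and 843 in ZF and 1434, 1411, 1082 and 702 in ZF-SGLT2i rats, and Spp1 was the most abundant. ZF rats 2 and 4 were the highest, as they were for Tnfrsf12a. Havcr1 (KIM-1) was at 1.70, 1.56, 1.70 and 1.88 CPM in ZL, 52.3, 14.6, 32.1 and 7.32 CPM in ZF and 21.9, 16.7, 13.4 and 2.34 CPM in ZF-SGLT2i rats. Of 8 tested fibroblast genes, 2 were higher in ZF than in ZL (25%). In ZF-SGLT2i against ZF, 4 (Col1a2, Col3a1, Dcn and Pdgfrb) were lower (50%, beside 3.15% of all tested genes). The fibroblast sum was 757, 729.8, 534 and 808 CPM in ZL, 1174, 819, 1094 and 692 CPM in ZF and 632, 583, 554 and 549.9 CPM in ZF-SGLT2i rats, with Pdgfra the most abundant gene. Treated rats were thus below all ZF rats in this sum, as they were in Cxcl12, Cxcl14, Cxcl16 and Cx3cl1. They overlapped the ZL rats in the sum, but were below all ZL rats in each of those chemokines.

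The other kidney lists gave these counts. Of all tested genes, 18.8% passed in ZF against ZL, 3.15% in ZF-SGLT2i against ZF and 27.4% in ZF-SGLT2i against ZL. Of 9 podocyte genes, 5 were higher in ZF than in ZL (55.6%) and none passed in ZF-SGLT2i against ZF (2 at an unadjusted p under 0.05). Of 11 endothelial genes, 2 were higher in ZF than in ZL (18.2%) and none passed under treatment in limma (2 at an unadjusted p under 0.05). Of 10 proximal tubule genes, 1 was higher and 1 lower in ZF than in ZL (20%), and 1 was lower with treatment (10%). The sum of the proximal tubule genes was 24053, 23208, 24535 and 21704 CPM in ZL, 18782, 18890.1, 22356 and 17549.6 CPM in ZF and 19152, 17259.7, 17609 and 14845 CPM in ZF-SGLT2i rats. Of 9 collecting duct genes, 1 was higher in ZF than in ZL (11.1%) and 1 higher with treatment (11.1%). In treated against ZL rats, 5 of these genes were higher (55.6%). Against ZF all 9 had log2 fold changes above 0 in treated rats, 5 of them at an unadjusted p under 0.05. Their sum was 1889, 2494, 2044 and 1553 CPM in ZL, 2029.7, 2404, 1769 and 2576 CPM in ZF and 2799, 2936, 2905 and 3192 CPM in ZF-SGLT2i rats, and every treated rat was above every ZF and ZL rat. The part of these genes in the results for Tnfrsf21 and Ccl28 was not tested. Of 6 thick limb and distal tubule genes, none passed in ZF against ZL or in ZF-SGLT2i against ZF (1 and 4 at an unadjusted p under 0.05). Of 6 proliferation genes, 1 was higher in ZF than in ZL (16.7%) and 2 were lower with treatment (33.3%). Of the neutrophil genes 3 were tested and Lcn2, also in the injured tubule list, was higher in ZF, of the blood genes 4 were tested and Hba2 was higher in ZF, and of the mast cell genes Kit was the one tested. Neither the 3 tested dendritic cell genes nor Adipoq, the tested adipocyte gene, passed in any comparison.

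**Figure D5:**
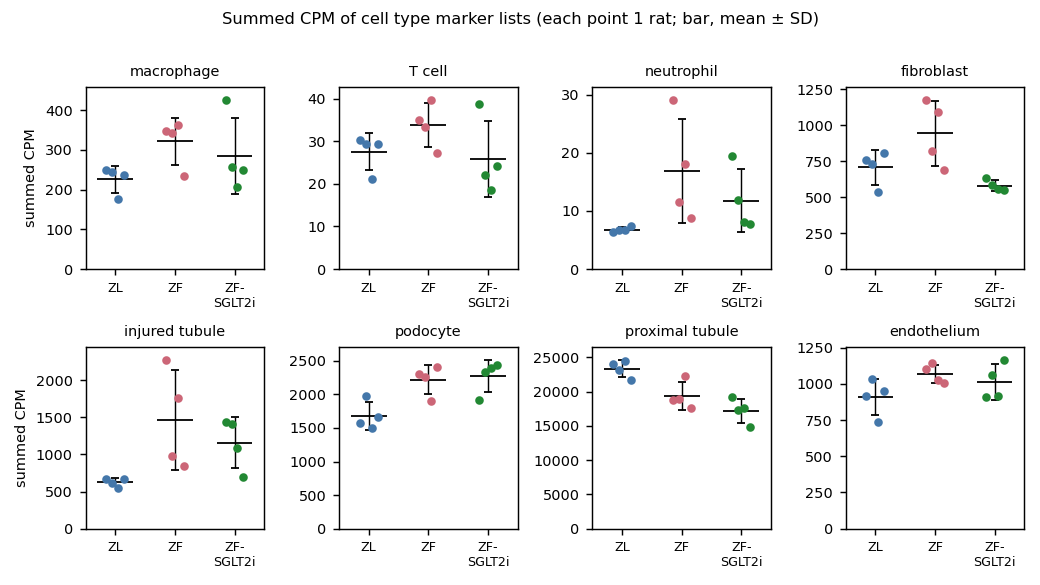
Summed CPM of 8 marker lists in each rat, with points for rats and bars for the mean and SD of 4 rats in ZL, ZF and ZF-SGLT2i. The injured tubule sum is above all ZL rats in every ZF rat, the fibroblast sum is below all ZF rats in every ZF-SGLT2i rat, and the macrophage sum overlaps between all 3 groups.

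Some values could hold reads of a neighbour. All 68 symbols were found in the GRCr8 gene table, where 17 of the genes overlap another protein-coding gene. Of the 27 cytokine genes that passed in any comparison, 6 do so: Cxcl10, Cxcl16, Il18, Il34, Il6r and Tnfrsf1b. The libraries kept the strand, but the strand setting of the counting is not given in the sources used here. Zmynd15, the neighbour of Cxcl16, was at 17.5 CPM in ZL, 17.3 CPM in ZF and 13.1 CPM in ZF-SGLT2i rats. Art3, the neighbour of Cxcl10, stayed between 1.05 and 1.39 CPM on average, and Bco2, that of Il18, between 1.94 and 3.17 CPM.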

How the data were processed

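RNA from the renal cortex of 12 rats was depleted of ribosomal RNA, made into directional libraries and sequenced as read pairs. The submitters' processing notes name Trimmomatic 0.38, RSEM 1.3.0, Bowtie2, edgeR and the rn6 build, without roles or order; the annotation and the strand setting of the counting are not given in the sources used here. The deposited signal in each of the 12 columns used was, within a tolerance of 1e-06, a whole read count times a constant of that rat, and these constants equalled the trimmed-mean-scaled CPM of edgeR 4.0.16. The values were therefore taken as the authors' scaled CPM, and read counts were recovered from them. No column of other samples was present.

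Genes with at least 1 CPM in at least 4 columns (11633 of 13151) were fitted on log2(CPM + 1) in 1 model of the 3 groups with limma 3.58.1 (moderated by a mean trend, R 4.3.3), two-sided, with Benjamini-Hochberg adjustment over all of them. Fold changes on this scale understate those of low genes. Single genes were also compared with a two-sided exact permutation test over 70 assignments, whose smallest p is 0.0286. The labels number the samples but say no more of their origin, so p-values measure the spread between these samples. At 8824980 to 12210257 reads per rat, 1 read was worth about 0.1 CPM, and counting error is largest for genes with few reads.

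Some genes are counted but not reported here by name. The text otherwise names every cytokine gene past the threshold in any comparison, the 10 with the highest mean, a list chosen by role in kidney inflammation, and the pathway genes past the threshold; others named in passing, such as Ccl19, Ccl20, Cxcl13 and the receptors of changed ligands, were chosen after their values were seen. The cytokine genes and all gene lists were chosen with earlier results of these data known. Alternatives were pseudocounts of 0.1 and 0.5, no filter or a mean of at least 5 CPM, median-ratio and quantile scaling, only the groups compared, a replicate block, array weights, edgeR and DESeq2 1.42.0 on the recovered reads, ribosomal genes left out, and each rat left out in turn. The fit was tested on simulated data, but the outcome is not reported here and no result rests on it. Promoters are RefSeq sequences of GRCr8. The interferon and NF-kB motifs were each shortened by 1 letter after a first search, which added matches, among them those in Cxcl16 and Tnfsf10, so the matches are descriptions of motif letters chosen after results were seen.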

Additional observations from a re-analysis of the deposited data

Results flagged for a closer look

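In 7 of 117 groups of 4 rats, taken over the 39 named cytokine genes, the highest or lowest rat stood apart from the other 3 by more than Dixon's 95% critical value allows, where chance gives about 5.85. ZF rat 5 was low in Cx3cl1, at 144 CPM against 168 to 173 CPM in the other ZF rats, and in Cxcr4, at 2.62 CPM against 4.21 to 4.44 CPM. ZF-SGLT2i rat 2 was high in Cx3cr1, at 5.71 CPM against 3.68 to 4.02 CPM. ZF-SGLT2i rat 6 was high in Il12rb2, at 23.7 CPM against 18.9 to 19.0 CPM, and low in Il13ra1, at 78.8 CPM against 86.1 to 87.6 CPM. ZF-SGLT2i rat 4 was low in Il20ra, at 6.14 CPM against 9.09 to 9.47 CPM. ZL rat 1 was low in Il6r, at 6.64 CPM against 8.62 to 9.02 CPM.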

How the results depend on the processing

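The counts of changed cytokine genes, 14 in ZF against ZL, 7 in ZF-SGLT2i against ZF and 20 in ZF-SGLT2i against ZL, ranged over 8 to 15, 2 to 11 and 16 to 21 when each rat was left out in turn, while 11.9% to 21.1%, 1.51% to 4.9% and 19.3% to 28.4% of all tested genes passed. The counts of other pathway genes, 21, 2 and 22, ranged over 12 to 24, 1 to 3 and 17 to 26. With only genes of at least 5 CPM on average, ZF-SGLT2i against ZF had 4 cytokine genes and 1 pathway gene, Socs2 being below that minimum. Its pathway count was 5 with array weights and 4 in DESeq2, beside 5.92% and 5.51% of all tested genes. The deviations of samples with the same rat number from their group means had r = −0.376 to 0.253 over 9 pairs, 2 of them over 0.1. Samples with different numbers had r = −0.402 to 0.455. The main fit did not use the numbers, but these correlations cannot exclude that the numbers pair the rats. With the number as a replicate block the cytokine counts were 8, 6 and 12 and the pathway counts 13, 1 and 14, in the order given, beside 6.94%, 1.92% and 12.9% of all tested genes (18.8%, 3.15% and 27.4% without the block). ZL rat 1, ZF rat 5 and ZF-SGLT2i rat 6 share their number with no other rat. Their values therefore did not enter the group differences of the block fit, which compared fewer rats than the main fit. The calls of Ccl28, Il18, Il1rap and Il6r in ZF against ZL were lost under the block and under no other alternative run for them. Those of Ccl5, Cxcl10, Il12rb2, Il20ra, Il4r and Tnfrsf12a were lost under it too. In ZF-SGLT2i against ZF the block ended the calls of Cx3cl1 (limma adjusted p = 0.0589) and Tnfrsf21 (0.105), Tnfsf10 passed (0.0373), and the lower pathway gene Socs2 did not pass. In ZF-SGLT2i against ZL it ended those of Ccl5, Il18, Il1rap, Il1rl1, Il2rb, Il4r, Il6r, Tnfrsf11b and Tnfrsf21 (0.0521 to 0.128). Leaving out ribosomal genes was chosen after seeing the data. The alternatives for single genes were run where a named cytokine gene had an unadjusted p under 0.05 (19, 18 and 22 genes in the 3 comparisons), and none of these reversed its direction. The causes of these shifts were not tested. Of genes past the threshold in limma, those kept under every alternative run for them (24, or 23 for genes below 5 CPM on average) numbered 3 of 14, 2 of 7 and 10 of 20. The 31 genes left untested had a median of 45 reads over all 12 rats.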

Other observations

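ZF-SGLT2i rat 2 stood above the other treated rats in several leukocyte genes, which were singled out after their values were seen. Cxcl13 was at 13.0, 2.32, 2.52 and 4.01 CPM in ZF-SGLT2i rats 2, 3, 4 and 6, and Il21r at 3.43, 0.404, 1.51 and 1.89 CPM. The macrophage gene Adgre1 was at 31.7, 7.37, 6.94 and 10.8 CPM and C1qb at 15.8, 9.79, 7.45 and 7.80 CPM in the same rats. Rat 2 was the highest in each of these 4 genes.

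ZF rat 5 was the lowest ZF rat in Cx3cr1, Cxcr4, Il10ra, Csf1r and Lyz2. Lyz2, a lysozyme of macrophages, was at 213, 209.6, 226 and 138 CPM and Csf1r at 48.9, 40.9, 45.6 and 30.5 CPM in ZF rats 2 to 5.

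Among ZL rats, rats 1 and 4 had the highest values of Tnfrsf11b and Il33. Il33 was at 172, 100.04, 127 and 209.7 CPM and Tnfrsf11b at 17.1, 4.51, 6.12 and 32.2 CPM in ZL rats 1 to 4. Il4r was also highest in rats 4 and 1, at 117, 98.4, 109 and 154 CPM. Cish, a STAT-induced inhibitor, was at 78.1, 25.7, 97.2 and 137 CPM, highest in rat 4 and then in rat 3.

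Sdc1 (syndecan-1), listed as a plasma cell gene and also made by epithelia, was at 9.42, 10.6, 10.2 and 10.5 CPM in ZL, 18.0, 24.3, 20.5 and 18.4 CPM in ZF and 33.4, 32.4, 30.6 and 34.6 CPM in ZF-SGLT2i rats. The 3 groups did not overlap, and it passed in ZF against ZL (log2 fold change 0.92, SE 0.09, adjusted p = 3.37e-05) and in ZF-SGLT2i against ZF (log2 fold change 0.67, SE 0.09, adjusted p = 0.00128). Blk and Mzb1, which B cells and plasma cells express, stayed below 1 CPM in all 12 rats.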
